A study of Mus musculus with 14 samples.

Results

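The epidermal differentiation complex is a run of genes on mouse chromosome 3 that encode much of the outer skin layer. The genes described here carry a symbol that begins with Sprr, Lce or S100a, or are Flg, Flg2, Lor, Ivl, Crct1, Rptn, Hrnr, Tchh or Pglyrp3. They were chosen by symbol, and 42 of the 17097 genes with a probe set of a single symbol qualified: 10 Sprr, 13 Lce and 13 S100a genes, the envelope precursors Lor and Ivl, and Flg, Hrnr, Rptn and Tchh. A total of 63 genes of the RefSeq table met the same rule, and the other 21, among them Flg2, Crct1 and Pglyrp3, were not analysed here as single genes.

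Expression was measured on 14 Affymetrix arrays of epidermal cells from mice aged 15 weeks with skin in homeostasis. The mice were G9a WT or G9a cKO, a conditional knockout of the histone methyltransferase G9a, encoded by Ehmt2. There were 3 WT and 4 cKO arrays of bulge cells, from the stem cell niche of the follicle, and 3 WT and 4 cKO arrays of cells of the interfollicular epidermis (IFE) between the follicles. The sources used here do not give the driver of the deletion, the cells it acts in, how cells were isolated or whether replicates were separate animals. The p-values therefore cover only the spread between these samples, which may be technical.

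In the skin, basal keratinocytes stop dividing, move outwards and assemble a cornified envelope beneath the membrane, a sheet of proteins joined by transglutaminases. Involucrin (Ivl), loricrin (Lor), the small proline-rich proteins (Sprr) and the late cornified envelope proteins (Lce) are its building blocks, and filaggrin (Flg) and hornerin (Hrnr) are large proteins of the granular layer that are made as precursors. The S100a genes at the ends of the complex encode small calcium-binding proteins, which are found in many cell types and are not restricted to cornifying cells.

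Promoters of some of the genes described below are shown first, because most of those of the Sprr genes carry shared short motifs. Each run is 250 bases that end just before the gene's start, from RefSeq on GRCm38.p6, in the direction of the gene. Capitals mark matches to TGANTCA, the letters bound by AP-1 factors (Fos and Jun proteins), and to TATAAA, the TATA box.
Sprr1a (chr3:92485882-92486131, minus strand): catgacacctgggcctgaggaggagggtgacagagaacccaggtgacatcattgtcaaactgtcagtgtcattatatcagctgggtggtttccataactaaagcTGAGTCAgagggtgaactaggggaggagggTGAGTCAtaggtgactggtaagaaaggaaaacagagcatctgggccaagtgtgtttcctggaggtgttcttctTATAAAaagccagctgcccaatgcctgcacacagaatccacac
Sprr1b (chr3:92438780-92439029, minus strand): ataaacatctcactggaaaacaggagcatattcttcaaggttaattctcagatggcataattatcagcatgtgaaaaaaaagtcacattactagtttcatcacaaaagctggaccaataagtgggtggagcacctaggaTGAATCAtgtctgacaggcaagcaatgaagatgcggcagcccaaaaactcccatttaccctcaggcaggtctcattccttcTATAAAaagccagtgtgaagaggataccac
Sprr2k (chr3:92432332-92432581, plus strand): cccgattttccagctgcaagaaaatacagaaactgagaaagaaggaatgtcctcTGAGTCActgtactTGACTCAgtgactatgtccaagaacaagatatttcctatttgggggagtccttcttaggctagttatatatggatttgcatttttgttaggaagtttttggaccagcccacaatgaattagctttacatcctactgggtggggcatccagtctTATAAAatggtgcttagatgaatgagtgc
Ivl (chr3:92573736-92573985, minus strand): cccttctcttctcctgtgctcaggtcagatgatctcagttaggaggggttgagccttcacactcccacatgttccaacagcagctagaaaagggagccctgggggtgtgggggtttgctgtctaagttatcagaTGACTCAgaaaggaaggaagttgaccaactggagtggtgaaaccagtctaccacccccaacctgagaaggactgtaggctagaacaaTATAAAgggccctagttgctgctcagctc
Lor (chr3:92083143-92083392, minus strand): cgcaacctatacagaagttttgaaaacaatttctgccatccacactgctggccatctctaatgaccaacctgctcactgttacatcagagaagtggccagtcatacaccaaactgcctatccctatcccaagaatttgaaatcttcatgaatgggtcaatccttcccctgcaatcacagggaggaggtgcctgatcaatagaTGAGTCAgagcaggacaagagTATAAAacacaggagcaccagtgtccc
S100a4 (chr3:90603520-90603769, plus strand): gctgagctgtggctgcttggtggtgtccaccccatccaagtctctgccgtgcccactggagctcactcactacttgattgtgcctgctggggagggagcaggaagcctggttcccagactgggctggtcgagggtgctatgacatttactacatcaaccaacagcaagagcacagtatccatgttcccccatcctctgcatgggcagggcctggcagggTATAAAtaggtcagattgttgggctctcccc

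Of the 42 genes 38 had a promoter in the table, and TGANTCA was found on either strand in 13 of them (34.2%), against 6.87% of 27025 genes of the table. The motif was in 7 of 9 Sprr promoters, in 0 of 12 Lce promoters and in 2 of 11 S100a promoters. Sprr2d, Sprr2f, Sprr2h, Sprr2i and Sprr2k each had a match that began 193 to 198 bases before the start. Sprr2 genes are near-identical copies, so these promoters are not separate cases. Sprr1a and Sprr2k held 2 matches each, and Sprr1b, Ivl and Lor held 1. Sprr2a1, with the largest Sprr difference in WT, held no match to TGANTCA or TATAAA in the window searched and is not shown. The TATA box was in 18 of 38 promoters (47.4%, against 13% of all genes), and in 8 of 9 Sprr promoters. The other motifs searched, on both strands, were CCACCC, a KLF-type site, in 12 of 38 (31.6%, against 27.7%), and GGGCGG, the GC box, in 3 of 38 (7.89%, against 32.9%). No match to one of these motifs overlapped a match to another in the runs shown. A match is a description of the letters and no evidence of binding.

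The arrays were checked against their labels before the genes were compared. The Ehmt2 probe set that differed between genotypes read 9.51 to 9.78 on WT arrays and 5.85 to 6.09 on cKO arrays. A further Ehmt2 probe set read 7.84 to 8.05 on all arrays, and where it lies relative to the deletion is not known here. All 8 bulge markers (among them Cd34, Lgr5 and Lhx2) were higher in bulge WT than in IFE WT (against 18.4% of all genes). All 4 measured interfollicular markers (Krt1, Krt10, Thy1, Il33) were lower (against 16.6% of all genes, limma adjusted p under 0.05 for both lists). These lists were chosen with earlier results of these data known, so the counts are not an independent check of the labels. Marker levels differed among the cKO arrays. The mean of the 8 bulge markers was 10.01, 9.26, 9.42 and 10.19 on bulge cKO replicates 1 to 4 (10.21 to 10.32 in bulge WT) and 6.91, 7.58, 7.57 and 6.89 on those of IFE cKO (6.91 to 6.92 in IFE WT), so replicates 2 and 3 stood apart in both compartments. By suprabasal markers it was bulge cKO replicate 1 that differed from the other 3. The suprabasal keratin gene Krt1 read 9.36, 11.93, 11.75 and 11.31 in bulge cKO (replicates 1 to 4), while bulge WT arrays lay between 9.41 and 9.87. The bulge marker Cd34 read 5.10, 6.65, 6.53 and 5.16 in IFE cKO (replicates 1 to 4), while IFE WT arrays lay at or below 5.12. The mean of the Langerhans and macrophage list (9 genes) was 6.53, 7.11, 6.92 and 6.68 on the bulge cKO arrays against 6.07 to 6.28 in bulge WT, and 3 of its 9 genes were higher (H2-Ab1, Cd74 and H2-Aa, against 1.98% of all genes). Without cKO replicates 2 and 3, 0 of the 9 passed, and the median log2 difference was 0.33, against 0.50 with all arrays. Mean signals of the T cell list (6 genes) were 5.66, 6.68, 6.78 and 6.33 on the bulge cKO arrays against 5.36 to 5.64 on bulge WT arrays. Thy1 belongs both to the T cell list and to the interfollicular markers above, so these lists are not separate. The part of these shifts in the cKO results was not tested. For the cKO, counts, medians and the main genes are also given without replicates 2 and 3 of both compartments, which leaves 2 cKO arrays in each and keeps bulge replicate 4 with its high Krt1.

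**Figure D1:**
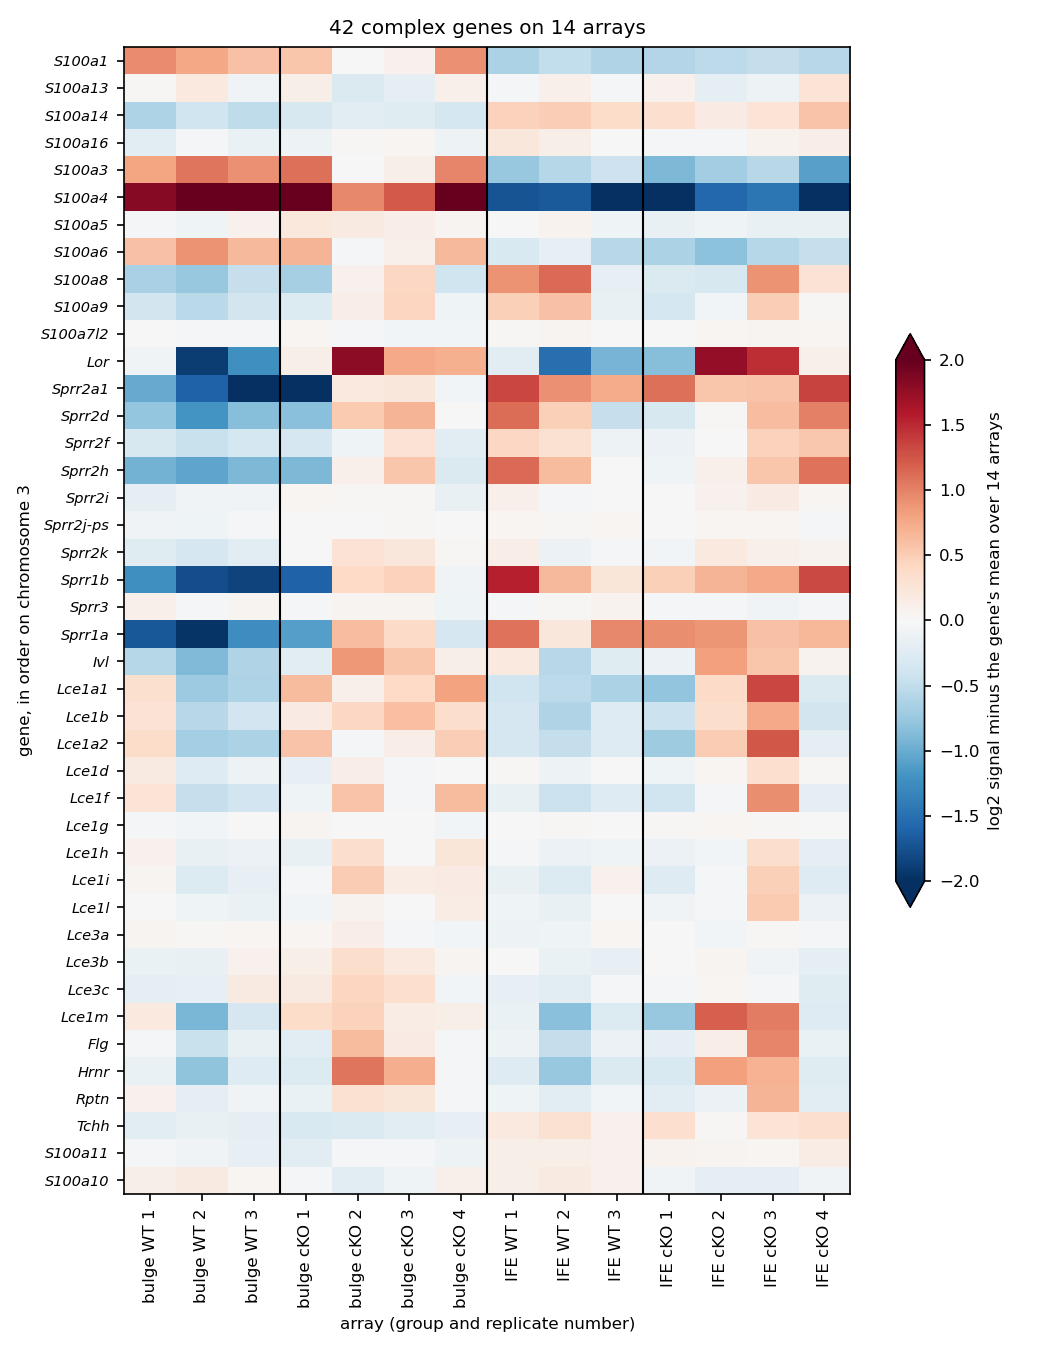
Signal of the 42 genes (rows, in their order on chromosome 3) on each of the 14 arrays (columns, by group and replicate number), as log2 signal minus the gene's mean over all arrays, with the colour scale ending at 2 in either direction. S100a4 is high on the 7 bulge arrays, Sprr1a, Sprr1b and Sprr2a1 are low on the bulge WT arrays and on bulge cKO replicate 1, and Lor is highest on replicates 2 and 3 of the cKO in IFE and on replicate 2 in bulge.

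The first comparison asked how the niche and the surface epidermis differ in WT mice, and the genes of the complex did not move one way. In bulk samples, fewer cells of a type and less RNA per cell cannot be told apart. In WT cells 4 of 42 genes were higher in bulge (9.52%, against 18.4% of all genes) and 13 were lower (31%, against 16.6% of all genes), at a limma adjusted p under 0.05. All 4 that were higher are S100a genes, and 7 of the 13 that were lower are Sprr genes. Groups did not overlap for 4 genes higher in bulge WT and 18 lower, against 23.7% of all genes in each direction. The lower calls fell to between 7 and 8 when any bulge WT array or IFE WT replicate 1 was left out, while the 4 higher calls were kept. With each array centred on its median, the split over all genes was 2730 higher and 3695 lower, against 3152 and 2846 as deposited.

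The Sprr genes, which encode cross-bridging proteins of the envelope, were lower in bulge WT than in IFE WT for 7 of 10 members, with a median log2 difference of -0.95, against -0.01 over all genes. Sprr2a1 read 10.38, 9.77 and 9.19 on bulge WT arrays 1 to 3 and 12.73, 12.30 and 12.13 on IFE WT arrays 1 to 3. These groups did not overlap, and the lowest IFE array lay above the highest bulge array by more than the range of either group. Sprr2a1 was lower in bulge by 2.61 log2 units (difference -2.61, SE 0.53, limma adjusted p = 0.00223, n = 3 and 3). Sprr1b read 6.54, 5.99 and 5.91 on the bulge WT arrays and 9.32, 8.42 and 8.01 on the IFE WT arrays, again without overlap (log2 difference -2.44, SE 0.49, limma adjusted p = 0.00206). For Sprr1a, with 8.43, 8.16 and 8.88 in bulge WT and 11.22, 10.36 and 11.08 in IFE WT, it was -2.39 (SE 0.38, limma adjusted p = 0.000425).

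Smaller differences passed for Sprr2h (-1.56), Sprr2d (-1.32), Sprr2f (-0.58) and Sprr2k (-0.27), all lower in bulge WT. Of these, the calls for Sprr2d, Sprr2f and Sprr2k were lost when any bulge WT array was left out. Sprr2f lay below the array median on all 14 arrays, so the size of its difference depends on the background. Sprr2i (-0.13), Sprr2j-ps (-0.09) and Sprr3 (0.01), also below the array median throughout, did not pass. Sprr2 genes are near-identical copies, and whether a probe set reads only its own gene could not be checked. Another probe set, listed for both Sprr2a3 and Sprr2a1 and therefore outside the gene tests, differed by -2.89 (limma adjusted p = 0.00108 over all probe sets).

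Lor and Ivl, which lie just outside the Sprr run on either side, did not pass between the compartments in WT. The log2 difference of Lor was -0.18 with a 95% interval from -1.66 to 1.31, and that of Ivl was -0.48 with an interval from -1.13 to 0.16. The 13 Lce genes had log2 differences between -0.05 and 0.19, and none passed in limma (0 with an unadjusted p under 0.05). Flg (0.02), Hrnr (0.03) and Rptn (0.06) did not pass either. Their 95% intervals were wide, from -0.60 to 0.63 for Flg and from -0.80 to 0.87 for Hrnr. Flg and Hrnr lay above the array median on 0 arrays of any group, and Rptn on 1. The count was also 0 for Lce1d, Lce1f, Lce1g, Lce1h, Lce1l and Lce3a, whereas Lce1i, Lce1m, Lce3b and Lce3c lay above it on every array. For genes below the array median the size of a difference depends on the background, so equal expression in the compartments is not shown. Tchh, which encodes trichohyalin of the hair inner root sheath, read 3.94, 4.02 and 3.99 in bulge WT and 4.36, 4.47 and 4.26 in IFE WT. Its difference of -0.38 passed (SE 0.08, limma adjusted p = 0.00289), but every array lay below the array median of 5.76 to 5.84.

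**Figure D2:**
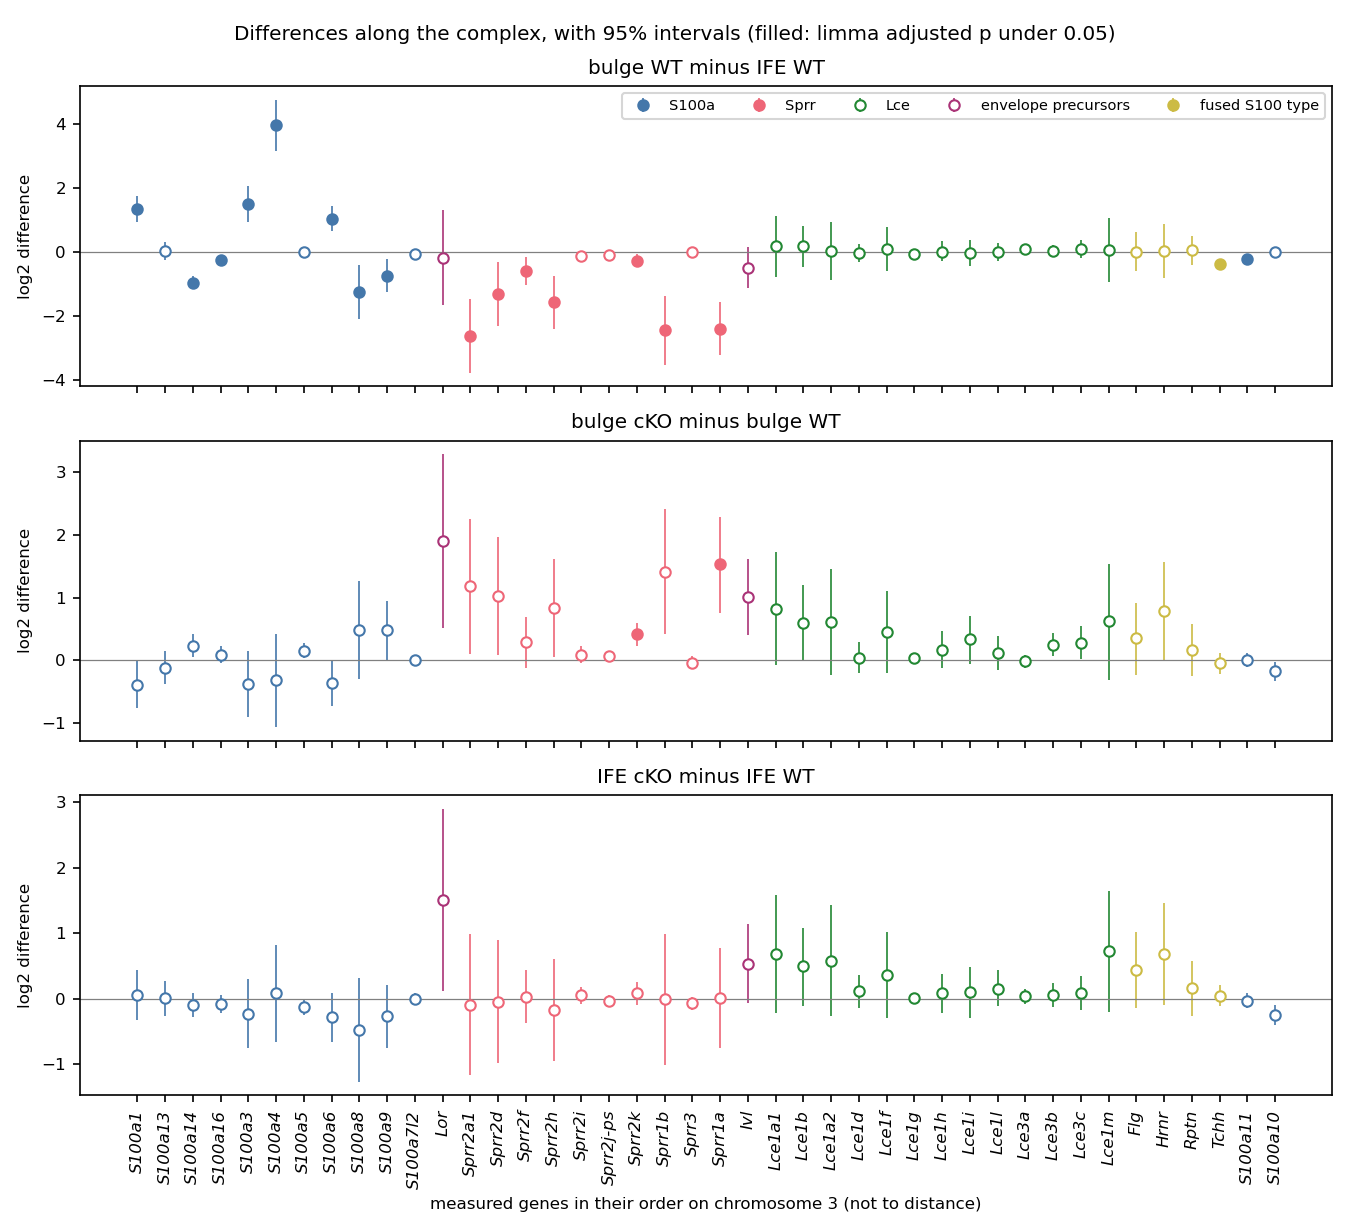
Log2 differences of the 42 genes in their order on chromosome 3 (x axis, not to distance) for 3 comparisons, with 95% intervals from limma; filled points passed an adjusted p under 0.05 and colours mark the families. Neighbours differ in the WT comparison: S100a4 is at 3.96 and the S100a8 gene, on the same side of Lor, is at -1.25, while the Sprr genes between Lor and Ivl include 7 filled points below 0.

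The S100a genes split. S100a4, which encodes a calcium-binding protein found in motile and mesenchymal cells among others, read 10.07, 10.49 and 10.33 on bulge WT arrays and 6.52, 6.56 and 5.93 on IFE WT arrays. The groups lay far apart, by 3.96 log2 units (SE 0.37, limma adjusted p = 1.61e-05), or 15.6-fold on the array scale. S100a3, a gene known from the hair cuticle, read 6.09, 6.37 and 6.21 in bulge WT and 4.54, 4.72 and 4.88 in IFE WT. Its log2 difference was 1.51 (SE 0.26, limma adjusted p = 0.000729), with the IFE arrays below the array medians. S100a1 (1.36) and S100a6 (1.05), which encodes calcyclin, were higher in bulge WT as well.

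Lower in bulge WT were S100a8 (-1.25), S100a14 (-0.95), S100a9 (-0.73), S100a16 (-0.24) and S100a11 (-0.20). With cyclic loess the calls of S100a16 (limma adjusted p = 0.0507) and S100a11 (0.101) were lost. S100a8 and S100a9 together form calprotectin, an antimicrobial protein of neutrophils and of stressed keratinocytes. S100a8 read 5.02, 4.91 and 5.21 in bulge WT and 6.57, 6.81 and 5.51 in IFE WT, so that IFE replicate 3 lay close to the bulge arrays. Its call was lost without bulge WT replicate 1 (limma adjusted p = 0.0631), bulge WT replicate 2 (0.0703), IFE WT replicate 1 (0.0797) or IFE WT replicate 2 (0.0943). The call of S100a9 was lost without any bulge WT array and without IFE WT replicates 1 or 2 (limma adjusted p between 0.0561 and 0.107). Of 9 measured neutrophil markers, Mmp9 (-1.75) and Cxcr2 (-0.28) were lower in bulge WT (22.2%, against 16.6% of all genes). The number higher was 0 (against 18.4% of all genes). The mean of that list was 5.28 to 5.41 on bulge WT arrays and 5.56 to 5.66 on IFE WT arrays. Log2 differences of its 9 genes ran from -1.75 to 0.06, with a median of -0.01. Ngp, Elane and Mpo, some of the granule genes listed, lay between 4.49 and 5.66 on all WT arrays. Camp, Ltf and Mmp8, also listed, are not given singly here, so these values do not stand for the whole list. The part of neutrophils in the S100a8 and S100a9 values was not tested. S100a10, S100a13, S100a5 and S100a7l2 had differences between -0.05 and 0.04 and did not pass.

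Markers of other cells were set beside S100a4, and their part in its difference was not tested. The fibroblast list (6 genes) had mean signals of 4.98 to 5.22 in bulge WT and of 4.82 to 5.14 in IFE WT, and none of its genes passed in limma (0 with an unadjusted p under 0.05). Lum and Pdgfra read 3.95 to 4.20 on all WT arrays, below the array medians, whereas Dcn and Col1a1 lay above the array median on every bulge WT array. Of the list, Col1a1 had the largest log2 difference, 0.63 (limma adjusted p = 0.246). Of the 9 Langerhans and macrophage markers, 0 were higher in bulge WT (against 18.4% of all genes). Lower were 3 (33.3%, against 16.6% of all genes), H2-Ab1 (-1.69), Cd207 (-0.65) and Cd74 (-0.57). Of the 7 inner root sheath and hair shaft genes measured, Krt71 (0.77) and Krt25 (0.24) were higher in bulge WT (28.6%, against 18.4% of all genes). Gata3, which is also a keratinocyte regulator, was lower (-1.76), 14.3% of the list against 16.6% of all genes.

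**Figure D3:**
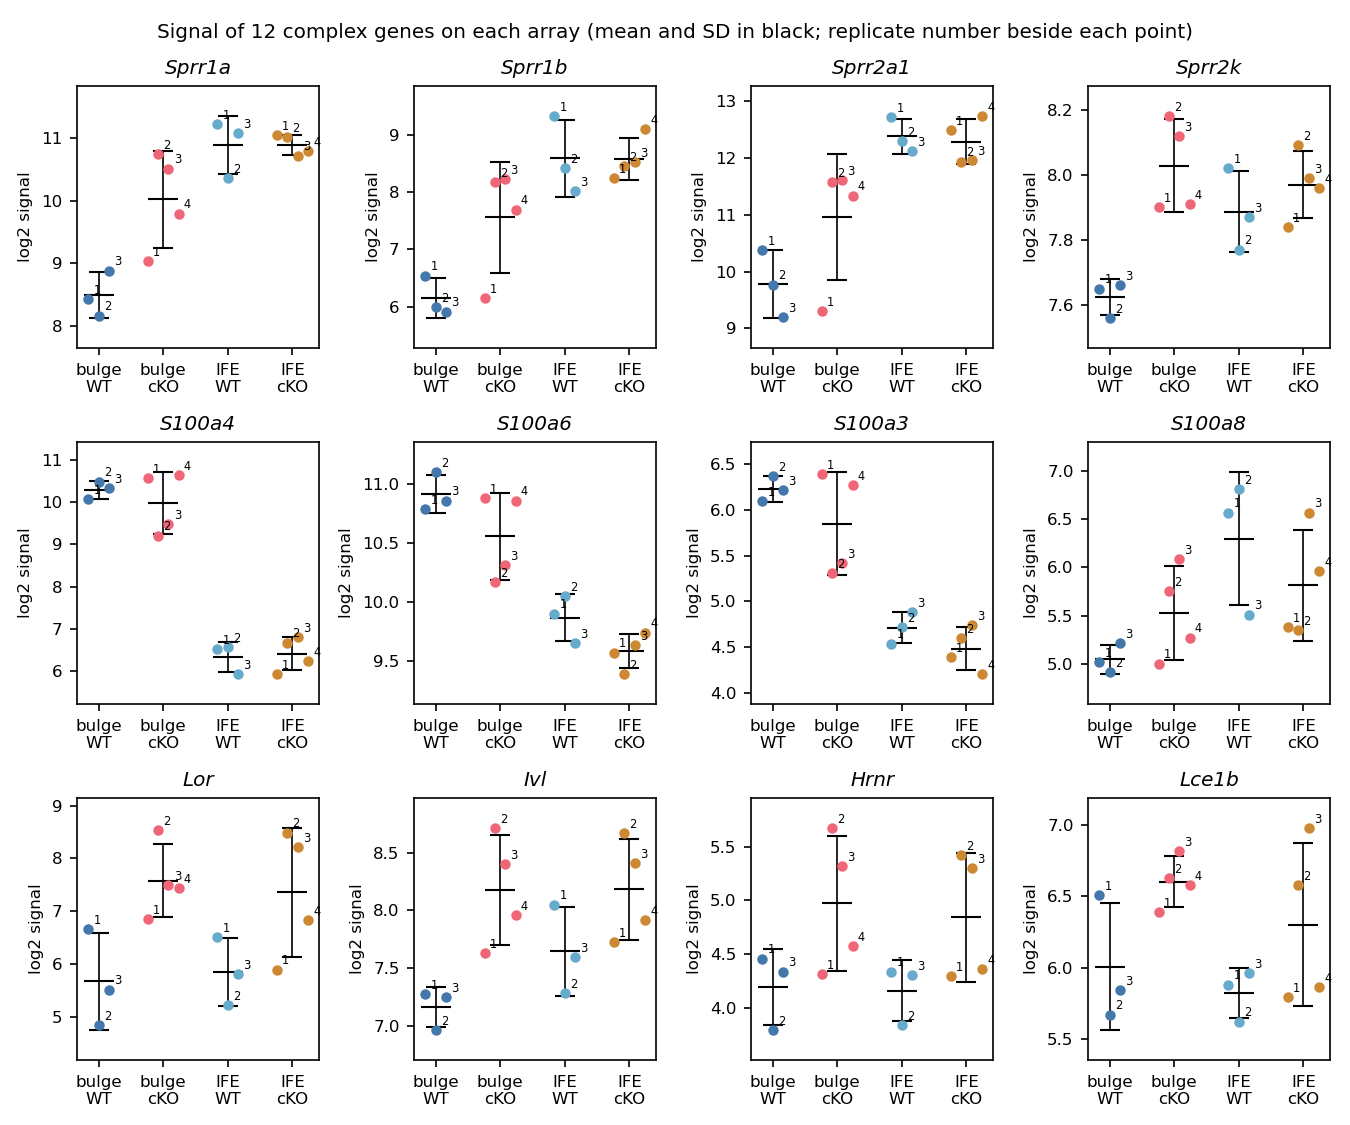
Log2 signal (y axis, a scale of its own for each gene) of 12 genes on each array, by group, with the replicate number beside each point and the mean and SD in black. The Sprr genes in the top row lie higher in IFE WT than in bulge WT, S100a4, S100a6 and S100a3 lie lower, and Lor, Ivl and Hrnr in the bottom row are highest on cKO replicate 2 of either compartment.

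Sprr1a and Sprr2k were higher in bulge cKO than in bulge WT, groups whose arrays also differed in the marker levels given above. They were 2 of 42 genes higher in bulge cKO (4.76%, against 1.98% of all genes), and 0 were lower (against 1.85% of all genes; 16 of the 42 had an unadjusted p under 0.05, in limma). The median log2 difference of the 42 was 0.24, against 0.01 over all genes, and 0.12 without replicates 2 and 3 (33 of 42 above 0). Sprr1a, a cross-bridging envelope protein that also responds to stress, read 8.43, 8.16 and 8.88 on bulge WT arrays 1 to 3 and 9.03, 10.74, 10.51 and 9.79 on bulge cKO arrays 1 to 4. The groups did not overlap, but cKO replicate 1 lay just above the highest WT array. Its log2 difference was 1.53 (SE 0.35, limma adjusted p = 0.0373, n = 4 and 3). Sprr2k read 7.65, 7.56 and 7.66 in bulge WT and 7.90, 8.18, 8.12 and 7.91 in bulge cKO, a narrow but complete separation (log2 difference 0.41, SE 0.08, limma adjusted p = 0.0247).

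These calls depended on which arrays were in the fit. Without cKO replicates 2 and 3 of bulge, Sprr1a had a log2 difference of 0.92 (limma adjusted p = 0.296) and Sprr2k of 0.28 (0.224), and 0 of the 42 genes passed. The count was also 0 without bulge cKO replicate 2 or 3 alone, without bulge WT replicate 1 or 2, and with only the bulge arrays in the fit (limma adjusted p = 0.145 for Sprr1a and 0.104 for Sprr2k). It was 5 without cKO replicate 1 and 6 without cKO replicate 4, where 2 genes were also lower, and 1 (Sprr2k) without IFE cKO replicate 2, 3 or 4 or IFE WT replicate 1, arrays that enter this comparison only through the shared spread. With each array centred on its median, all genes split into 234 higher and 330 lower, against 339 and 317 as deposited.

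Among the remaining Sprr genes, Sprr1b (log2 difference 1.41, limma adjusted p = 0.0915), Sprr2a1 (1.18, 0.163), Sprr2d (1.03, 0.161) and Sprr2h (0.83, 0.171) did not pass. Without replicates 2 and 3 these values were 0.77, 0.54, 0.52 and 0.37. Sprr2a1 read 9.30, 11.58, 11.62 and 11.34 in bulge cKO, so that replicate 1 lay within the bulge WT range and the other three above it. Sprr1b showed the same order, with 6.15 on cKO replicate 1 and 7.69 to 8.22 on replicates 2 to 4. The mean of the 6 Sprr genes above the array median on some array was 7.41, 8.85, 8.92 and 8.37 on the bulge cKO arrays, 7.17 to 7.52 on bulge WT and 8.74 to 9.56 over all IFE arrays. Krt1 was low on bulge cKO replicate 1 and high on replicates 2 to 4 in the same way, and the part of that shift in the Sprr values was not tested. Median differences of the Sprr family were 0.62 in bulge and -0.02 in IFE, and 0.33 and 0.00 without replicates 2 and 3.

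Lor read 6.66, 4.84 and 5.51 in bulge WT and 6.85, 8.53, 7.49 and 7.44 in bulge cKO. The groups did not overlap, yet WT replicate 1 lay 0.19 below the lowest cKO array, and the log2 difference of 1.91 did not pass (SE 0.64, limma adjusted p = 0.0978). Ivl read 7.28, 6.97 and 7.25 in bulge WT and 7.63, 8.71, 8.40 and 7.96 in bulge cKO, also without overlap (log2 difference 1.01, SE 0.28, limma adjusted p = 0.0616). A further Ivl probe set had 1.50 (adjusted p = 0.063 over all probe sets). Hrnr had 0.78 (limma adjusted p = 0.198) and Flg 0.35 (0.419). Without replicates 2 and 3 the differences were 1.48 for Lor, 0.63 for Ivl, 0.25 for Hrnr and 0.09 for Flg. The 13 Lce genes had a median of 0.28, with 12 above 0 and 0 past the threshold (3 with an unadjusted p under 0.05, in limma), and without replicates 2 and 3 a median of 0.16. In all, 8 of the 42 genes were higher in bulge cKO with no overlap between the groups, against 10.5% of all genes, and 0 were lower without overlap, against 8.05%.

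None of the 13 S100a genes passed in bulge cKO in limma (5 with an unadjusted p under 0.05). S100a4 read 10.57, 9.21, 9.48 and 10.64 in bulge cKO and 10.07 to 10.49 in bulge WT, with cKO replicates 2 and 3 low (log2 difference -0.32, limma adjusted p = 0.567). Without these arrays the difference was 0.31. S100a6 (-0.36), S100a3 (-0.38) and S100a1 (-0.39) did not pass and were also lowest on replicates 2 and 3, while S100a8 and S100a9 both had 0.48. Without these replicates S100a8 had 0.09 and S100a9 0.25.

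In IFE cells 0 of the 42 genes passed in either direction (against 0.322% of all genes higher and 0.175% lower; 3 of the 42 had an unadjusted p under 0.05, in limma). The median log2 difference was 0.04, and -0.01 without replicates 2 and 3. For the Sprr genes the differences lay between -0.18 and 0.08, and the 95% interval of Sprr1b ran from -1.01 to 0.99, which includes changes in either direction. Lor read 6.51, 5.22 and 5.81 on IFE WT arrays and 5.89, 8.49, 8.21 and 6.83 on IFE cKO arrays. Replicates 2 and 3 of the cKO were far above the WT arrays while replicate 1 lay among them (log2 difference 1.51, SE 0.64, limma adjusted p = 0.407). The IFE difference of Lor was 0.51 without replicates 2 and 3. Ivl (0.53), Hrnr (0.68) and Flg (0.43) did not pass, and all 13 Lce genes lay between 0.01 and 0.72. Without replicates 2 and 3 these values were 0.18, 0.17 and 0.08, and the Lce genes lay between -0.14 and 0.04, 5 of 13 above 0. Of S100a genes, S100a10, the partner of annexin A2, read 11.66 to 11.76 in IFE WT and 11.39 to 11.51 in IFE cKO without overlap (log2 difference -0.25, SE 0.07, limma adjusted p = 0.176; -0.19 without replicates 2 and 3). It was 1 of 3 genes lower without overlap (against 5.97% of all genes), and 0 were higher without overlap (against 5.01%).

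The difference between the bulge and the IFE response passed for 0 of the 42 genes, higher or lower (against 0.0234% and 0.0819% of all genes; 6 of the 42 had an unadjusted p under 0.05, in limma). Sprr1a had the largest estimate, 1.52 with a limma adjusted p of 0.235, followed by Sprr1b at 1.42 (0.352). They were 0.88 and 0.69 without replicates 2 and 3. For Lor the estimate was 0.40 with a 95% interval from -1.57 to 2.36. The passing of Sprr1a in bulge and not in IFE is therefore not shown to be a difference between the compartments.

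Between the compartments without G9a, 6 of 42 genes were higher in bulge cKO than in IFE cKO (14.3%, against 17.6% of all genes) and 4 were lower (9.52%, against 14.6%). With each array centred on its median, all genes split into 2045 higher and 3118 lower, against 3007 and 2489 as deposited. These arrays are also those of the genotype comparisons. S100a4 read 5.93, 6.67, 6.80 and 6.24 in IFE cKO, with no overlap with bulge cKO, and its log2 difference was 3.56 (SE 0.32, limma adjusted p = 4.07e-05). S100a3 (1.36), S100a6 (0.97), S100a1 (0.91), S100a5 (0.28) and Lce3b (0.24) were the other higher genes. Of these, S100a5 lay below the array median on all 14 arrays, so the size of its difference depends on the background. S100a3 read 6.39, 5.31, 5.42 and 6.27 in bulge cKO and 4.39, 4.60, 4.74 and 4.21 in IFE cKO. Lce3b read 6.78, 7.02, 6.87 and 6.73 against 6.66, 6.72, 6.60 and 6.48, a separation of 0.01, and its call was lost without bulge cKO replicates 2 and 3 (limma adjusted p = 0.274), with median centring (0.0713) and with cyclic loess (0.0626), among others.

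Lower in bulge cKO were Sprr2a1 (-1.33, limma adjusted p = 0.0435), S100a14 (-0.61), Tchh (-0.48) and S100a11 (-0.17). Sprr2a1 read 12.50, 11.94, 11.97 and 12.74 in IFE cKO, against 11.34 to 11.62 on bulge cKO replicates 2 to 4. Its difference was -0.78 without bulge cKO replicate 1 (limma adjusted p = 0.0575), and the call was also lost without any 1 IFE cKO array (0.0508 to 0.114). Tchh read 3.87, 3.89, 3.96 and 4.00 in bulge cKO and 4.50, 4.19, 4.45 and 4.50 in IFE cKO, below the array medians. Sprr1a (-0.87, adjusted p = 0.0587) and Sprr1b (-1.02, adjusted p = 0.086) did not pass with all arrays. Without replicates 2 and 3 of bulge cKO alone both passed (Sprr1a -1.48, limma adjusted p = 0.00324; Sprr1b -1.66, 0.02), and without those of both compartments Sprr1a passed (-1.51, 0.0161) and Sprr1b did not (-1.75, 0.0587). Lce1a1 (0.32) then passed as higher in bulge cKO (1.26, limma adjusted p = 0.0237), and Sprr2a1 had -2.30 (0.0266). The calls of S100a4, S100a3, S100a6, S100a1, S100a14 and Tchh were kept in both genotypes under every alternative that gave a value.

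**Figure D4:**
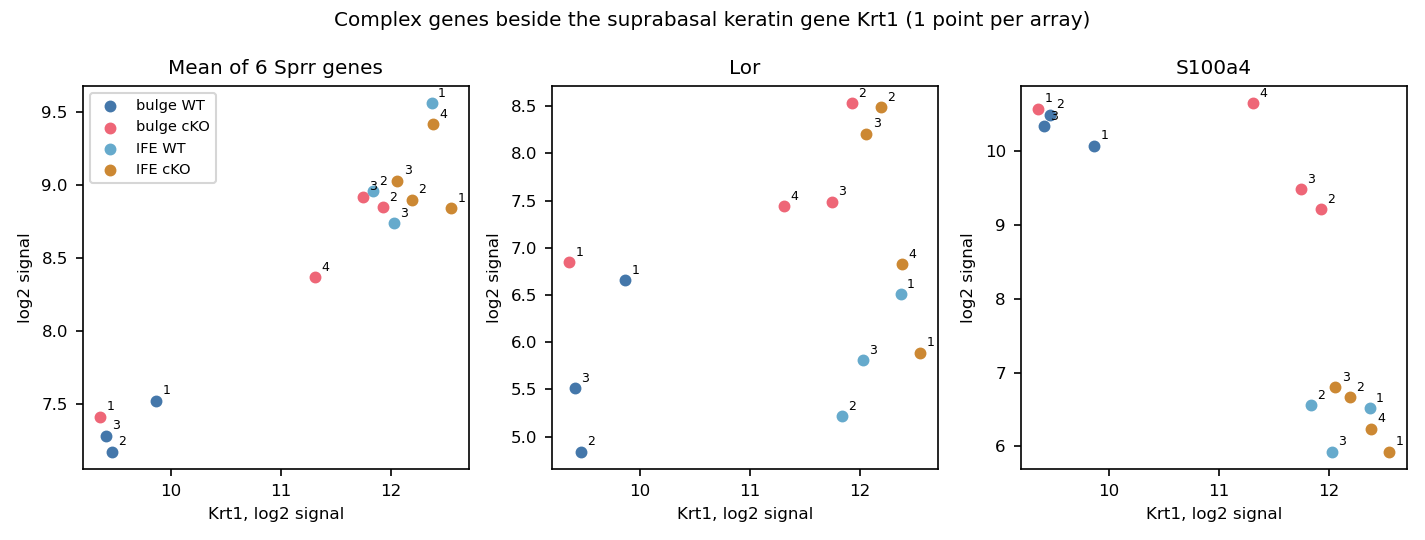
Mean log2 signal of 6 Sprr genes, and log2 signal of Lor and S100a4 (y axes), against the log2 signal of Krt1 (x axis), 1 point per array, coloured by group and marked with the replicate number. Bulge cKO replicates 2 and 3 lie among the IFE arrays in the Sprr panel. In the S100a4 panel, at 9.21 and 9.48, they lie below all other bulge arrays and above all IFE arrays. Lor differs among arrays of similar Krt1 signal.

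The genes also differed in how far arrays of a group lay apart. The SD within groups had a median of 0.25 over the 42 genes, against 0.11 over all genes. For Lor it was 0.92, and 5 of 17097 genes had a larger one. Next came Sprr2a1 (0.71), Sprr1b (0.66), Sprr2d (0.62), Lce1m (0.61) and Lce1a1 (0.59). The order of the 3 WT replicate numbers was the same in bulge and IFE for Lor, Ivl, Flg, Hrnr and Lce1m, with replicate 1 highest in each compartment. Such a shared order was found for 13 of 42 genes (31%), and for 20% of all genes. Whether arrays of the same number come from 1 animal is not known here.

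Genes of envelope assembly outside the complex were set beside these values. In bulge cKO, 2 of 21 measured crosslinkers, proteases and envelope genes rose (9.52%, against 1.98% of all genes), Casp14, a protease that processes filaggrin (log2 difference 2.32), and Abca12, a lipid transporter of lamellar granules (2.41), while 0 fell and the median was 0.78. Without replicates 2 and 3 Abca12 passed (1.84, limma adjusted p = 0.0275), Casp14 did not (1.30, 0.368), and the median was 0.38. In IFE cKO 0 of 21 passed in limma (5 with an unadjusted p under 0.05), with a median of 0.38, and 0.14 without replicates 2 and 3. In WT, 9 of 21 were lower in bulge than in IFE (42.9%, against 16.6% of all genes), including Abca12 (-3.15), Lypd3 (-1.46), Dsg1a (-3.95) and the transglutaminase gene Tgm3 (-2.03). The transglutaminase gene Tgm5 (4.29) and Calml3 (4.06), which encodes a calmodulin-like protein, were higher, 2 of 21 (9.52%, against 18.4% of all genes). Of 4 suprabasal keratins, Krt1, Krt10 and Krt77 were lower in bulge WT (75%, against 16.6% of all genes). In either cKO comparison 0 of these keratins passed (3 in bulge and 1 in IFE with an unadjusted p under 0.05, in limma).

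Of 17 measured regulators, 10 were lower in bulge WT than in IFE WT (58.8%, against 16.6% of all genes) and 2 were higher (11.8%, against 18.4%). Among the lower were Ovol1 (-2.56), Gata3 (-1.76), Fosl1 (-2.14), which encodes the AP-1 protein Fra-1, and Grhl3 (-1.48). Hopx (1.34) and Trp63 (0.35) were higher. Fos, Jun, Junb and Batf, which encode other AP-1 family proteins, had differences between -0.52 and 0.16 and did not pass. In bulge cKO 1 of 17, Ovol1, rose (5.88%, against 1.98% of all genes; 1.18, limma adjusted p = 0.0462), a call lost without replicates 2 and 3 (0.64, 0.441), and in IFE cKO 0 passed (1 with an unadjusted p under 0.05, in limma).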

How the data were processed

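The values are those the authors deposited: log2 signals per probe set made with RMA, per the submitters' processing notes, a method that subtracts background, brings arrays to one distribution and joins probes. Per the labels' protocols, cDNA was amplified before labelling. No version and no detection call is given in the sources used here, so signals near or below the array median have no tested background. The table held 45141 probe sets on 14 arrays. Symbols were updated through Entrez identifiers to the RefSeq table (GRCm38.p6), and each gene took the probe set with the highest mean over 14 arrays. Of the 42 genes, 5 had several probe sets and 10 were read by a probe set marked as able to share probes. No depth exists for arrays, and their number limits the precision.

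One model with a mean per group was fitted to all 17097 genes with limma 3.58.1 in R 4.3.3 (10 residual degrees of freedom; two-sided tests, Benjamini-Hochberg over all genes, threshold 0.05) and one spread for all groups. It was tested on simulated data. The members, lists and motifs were chosen with earlier results of these data known. By rule, values on every array are given for genes called in a genotype comparison and for up to 2 called genes with the largest difference per family in the others; Lor, Ivl, S100a8, S100a10 and Sprr1b in bulge cKO were added after their values were seen. Other settings tried were normalization by cyclic loess or by medians, dropping dim genes, other probe sets, robust fitting with a trend, weighted arrays, fitting each pair of groups alone, a replicate block, an adjusted p under 0.1, and dropping arrays. Dropping replicates 2 and 3 of every cKO group, counting only genes without a shared-probe mark, testing every probe set by itself, and a block of genotype and number were added after seeing the data. One promoter window per gene, the first listed, was searched. Figures were drawn with matplotlib 3.10.9.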

Additional observations from a re-analysis of the deposited data

Results flagged for a closer look

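Arrays that stood far from the other 3 of their group were looked for in 84 sets of 4 cKO arrays, and 6 were found; chance gives about 1 in 20. Sprr2a1 read 9.30 on bulge cKO replicate 1, against 11.34 to 11.62 on the others. Rptn read 6.05 on IFE cKO replicate 3 against 5.14 to 5.25, and Lce1l read 4.98 on the same array against 4.33 to 4.42. Tchh read 4.19 on IFE cKO replicate 2 against 4.45 to 4.50, and S100a5 read 4.60 there against 4.54 to 4.55. Sprr2i read 4.88 on bulge cKO replicate 4 against 5.06 to 5.07. The last 3 gaps are under 0.3 on the log2 scale.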

How the results depend on the processing

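Of 29 calls of single genes, 17 were kept under every alternative that gave a value, and none reversed. The 2 genes higher in bulge cKO became 15 with array weights (4 lower, against 0), 5 at an adjusted p under 0.1, and 0 with the replicate number as a block, with only the groups compared, and without cKO replicates 2 and 3 of bulge or of both compartments. Array weights, which ran from 0.336 to 3.74, also gave 2 lower genes in IFE cKO and 9 higher and 1 lower for the difference of effects, against 0 each. The largest weights fell on replicate 3 of bulge cKO (3.74) and of IFE cKO (2.94), arrays that stood apart by bulge markers. Bulge cKO replicate 4 had a weight of 0.35. The 4 genes lower in bulge cKO than in IFE cKO became 2 with cyclic loess and 2 with only the groups compared. The causes were not tested. Leaving out single arrays gave 0 to 6 higher and 0 to 2 lower genes in bulge cKO, 7 to 13 lower in bulge WT against IFE WT, and 2 to 5 lower and 5 to 7 higher in bulge cKO against IFE cKO. Replicate numbers were not taken as pairs, because the labels do not say what a shared number means. Deviations of same-numbered arrays from their group means had correlations over genes from -0.62 to 0.25. Between compartments they ran from 0.04 to 0.25 in WT and from -0.57 to 0.15 in cKO, which cannot settle whether these arrays are pairs. With the replicate block, Sprr1a (limma adjusted p = 0.064) and Sprr2k (0.0507) in bulge cKO were not called. The same held for S100a9, Sprr2d, Sprr2f and Sprr2k in WT and for Sprr2a1 between the cKO groups. A block of genotype and number left Sprr2a1 in the cKO at an adjusted p of 0.0563 and changed no other call of a single gene. Where a gene had several probe sets, calls differed for S100a16 alone, whose other probe set was also lower in bulge cKO than in IFE cKO (-0.28).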
